A study of Mus musculus with 11 samples.

Results

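Chemokines are small secreted proteins that draw leukocytes out of the blood and into inflamed tissue. The set described here holds 10 mouse chemokine genes, taken by symbol: Cxcl1, Cxcl2, Cxcl5, Cxcl10, Cxcl16, Ccl2, Ccl3, Ccl4, Ccl7 and Ccl20. All 10 were found among the 19938 genes that had a probe set with exactly 1 gene symbol, and each had 1 such probe set. They were followed in the pancreas of wild-type C57Bl6J mice given caerulein, a peptide that overstimulates the enzyme-secreting acinar cells and brings on acute pancreatitis. The caerulein group has 6 arrays, from mice given 9 intraperitoneal injections at intervals of 1 hour, at a dose the record states as 50 mg/kg, a unit that may be a slip and could not be checked here. The NaCl group has 5 arrays from mice given sodium chloride, although the series text counts 4 control mice beside 6 given caerulein. The sex and age of the mice, the number of NaCl injections and the time from the last injection to tissue collection were not stated in the text used here. Each array measured total RNA of whole pancreas, a mixture of all its cells, and values are log2 expression. In such bulk samples fewer cells of a type and less RNA per cell cannot be told apart.

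Chemokines are named for the spacing of their first cysteines, which gives the CXC and the CC class. They act on receptors that leukocytes carry: Cxcr2 on neutrophils, Ccr2 on monocytes, Ccr1 on monocytes and macrophages, Cxcr3 and Cxcr6 on T cells and Ccr6 on dendritic cells and some lymphocytes. In inflamed tissue their genes are switched on by the transcription factor NF-kB and, for some, by interferon, and they are made by epithelial cells, endothelium, fibroblasts and the leukocytes themselves. In rodent pancreatitis acinar cells are among the known early sources of several of them.

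In caerulein pancreas 6 of the 10 chemokines were higher than in NaCl pancreas and none was lower (limma, adjusted p under 0.05), against 16.4% of all 35556 probe sets that were higher and 27.8% that were lower (44.2% in either direction). The same 6 stayed higher with equal 75th percentiles, repeated quantile normalisation and cyclic loess, with 2, 1 and 0 lower. The count changed when arrays were shifted to the same mean over commonly used reference genes, called reference-gene scaling from here on. Then 1 was higher and 4 were lower, where 4.6% of all probe sets were higher and 86.9% lower. Of the 12 reference genes measured 7 were themselves higher in caerulein as deposited. The 6 were the neutrophil attractant Cxcl5, the interferon-inducible Cxcl10, the membrane-bound Cxcl16, the monocyte attractants Ccl2 and Ccl7, and Ccl3. Their differences lay between 0.93 and 1.25 on the log2 scale, or 1.91-fold to 2.39-fold. Cxcl1, Cxcl2, Ccl4 and Ccl20 did not pass, with differences of -0.19, 0.20, -0.05 and -0.19. The median difference of the 10 was 0.94, beside -0.11 over all probe sets. Of all probe sets 3.05% had a difference at least as large as that of Cxcl16, the largest of the 10.

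**Figure D1:**
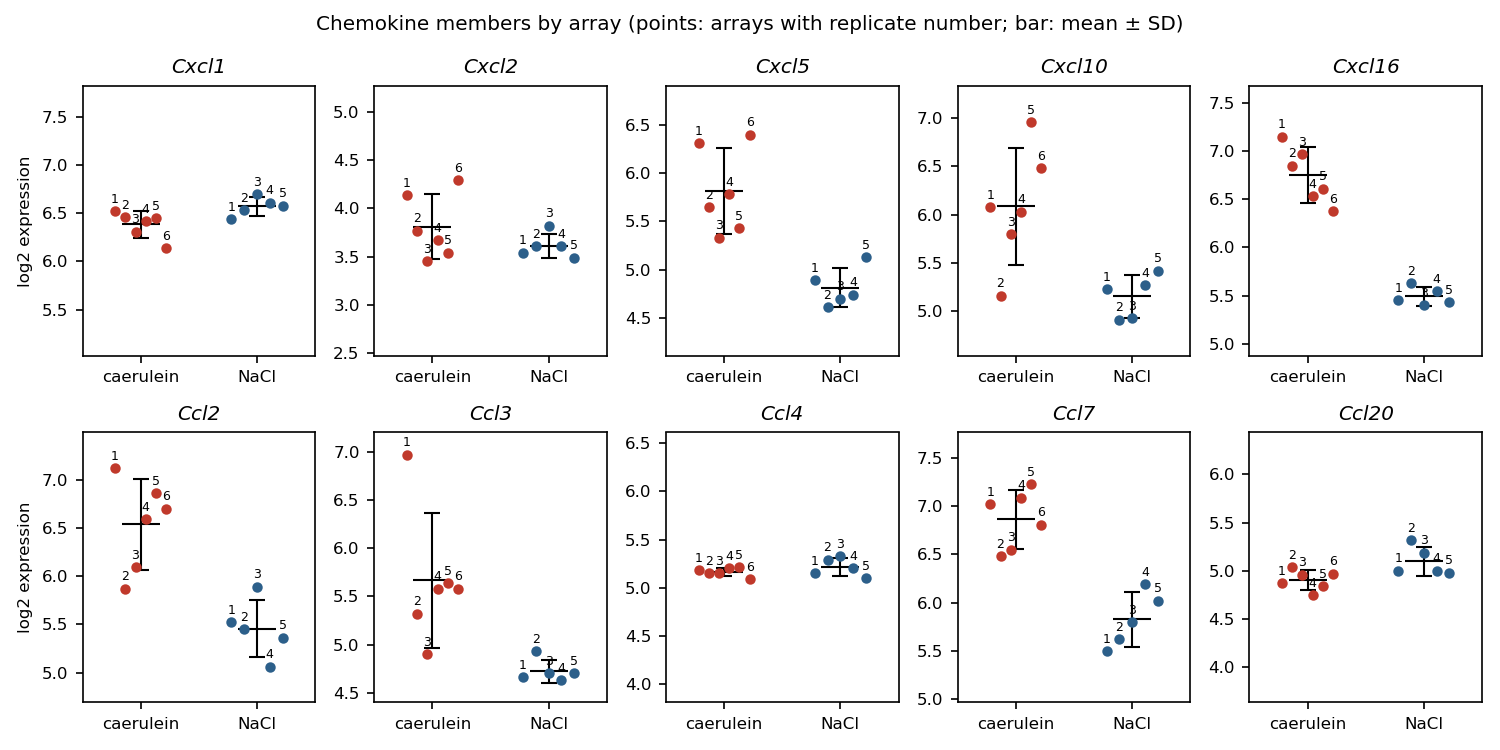
Log2 expression of the 10 chemokines by array. Each point is 1 array with its replicate number, caerulein (6 arrays, red) left of NaCl (5 arrays, blue), the bar is the mean with its SD, and every panel spans the same height in log2 units. The groups do not overlap for Cxcl5, Cxcl16 and Ccl7, and Ccl3 has 1 caerulein array (replicate 1) far above the other 5.

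Cxcl1, Cxcl2 and Cxcl5 are CXC chemokines that act on Cxcr2 and draw neutrophils. In the RefSeq gene table they lie in 1 cluster on chromosome 5: Cxcl1 and Cxcl2 have no protein-coding gene between them, and 4 genes (Ppbp, Pf4, Cxcl3 and Cxcl15) separate Cxcl5 from Cxcl1. Promoter sequence in the RefSeq-derived table (GRCm38.p6) was at hand for 5 of the 10 genes: Cxcl1, Cxcl2, Cxcl10, Ccl3 and Ccl20. The 120 bases before the start of Cxcl1 (chr5:90891125-90891244, plus strand) and Cxcl2 (chr5:90903779-90903898, plus strand) are shown because these neighbours carry the same match to the kB consensus, the recognition sequence of NF-kB, and neither passed the test. Capitals mark bases in a kB match on either strand.
Cxcl1: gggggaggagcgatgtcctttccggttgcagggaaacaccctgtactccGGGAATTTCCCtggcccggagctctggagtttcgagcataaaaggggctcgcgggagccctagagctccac
Cxcl2: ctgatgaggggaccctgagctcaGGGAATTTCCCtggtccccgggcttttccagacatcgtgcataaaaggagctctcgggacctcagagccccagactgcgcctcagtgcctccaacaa
In both, 2 overlapping matches on opposite strands form the same run GGGAATTTCCC, which begins 71 bases before the start of Cxcl1 and 97 bases before that of Cxcl2. A kB match occurs in 7.28% of the 32536 distinct promoter windows of 250 bases in the table.

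Cxcl5 was 6.31, 5.65, 5.33, 5.78, 5.43 and 6.40 in caerulein replicates 1 to 6, against 4.89, 4.61, 4.70, 4.74 and 5.13 in NaCl replicates 1 to 5. The groups did not overlap, with all caerulein arrays on the higher side, as for 12.7% of all probe sets (15.6% did so on the lower side). The difference was 1.00 (SE 0.19, limma adjusted p = 0.00102), or 2.00-fold, and 0.25 under reference-gene scaling, where it did not pass (limma adjusted p = 0.216). Cxcl2 was 4.14, 3.77, 3.45, 3.67, 3.54 and 4.29 in caerulein, against 3.54, 3.61, 3.82, 3.61 and 3.49 in NaCl. Its groups overlapped, with 2 caerulein arrays (replicates 1 and 6) above all NaCl arrays, and the difference of 0.20 had a 95% interval of -0.12 to 0.51 (limma adjusted p = 0.291). Cxcl1 was 6.52, 6.46, 6.31, 6.42, 6.45 and 6.14 in caerulein, against 6.44, 6.53, 6.70, 6.61 and 6.58 in NaCl. It lay somewhat lower in caerulein but the groups overlapped, and the difference of -0.19 (95% interval -0.36 to -0.02) did not pass after adjustment (limma adjusted p = 0.0725).

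The log ratio of 2 probe sets within an array does not change when an array is shifted, so it was set side by side for pairs of members. The pairs were chosen after their values had been seen, so these ratios are a description with no test. Only the change of a ratio can be read, not its level. Even that is limited for Cxcl2, which lay at 3.45 to 4.29 in caerulein, where array medians were 5.2 to 5.25. Whether its signal exceeded background is unknown, so a change in Cxcl2 could be missed. The ratio of Cxcl5 to Cxcl2 may then show little beyond the change of Cxcl5. The ratio of Cxcl5 to Cxcl1 ranged from -1.02 to 0.25 in caerulein and from -2.0 to -1.45 in NaCl, a difference of 1.19 (2.28-fold). The ratio of Cxcl5 to Cxcl2 ranged from 1.88 to 2.17 in caerulein and from 0.88 to 1.64 in NaCl, a difference of 0.81. The ratio of Cxcl2 to Cxcl1 differed by 0.38. The groups did not overlap for the first 2 ratios, and how often other pairs of probe sets do so was not counted.

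Cxcl2 and Cxcl5 followed each other across the caerulein arrays: replicates 6 and 1 were the highest for both and replicate 3 the lowest for both. Over the 6 caerulein arrays Pearson's r was 0.98 (exact permutation p = 0.00833) and Spearman's rho 0.94 (exact permutation p = 0.0167), and r was 0.85 without the 2 arrays farthest from the median of Cxcl2. This was the highest r among 45 pairs of members, a family computed after the values had been seen, and no pair passed Benjamini-Hochberg adjustment (adjusted p = 0.375 for Pearson's r here, and 3 pairs had an unadjusted p under 0.05). The same 2 arrays had the highest mean over 15 neutrophil markers, a list that holds Cxcr2, at 5.15 in replicate 6 and 5.00 in replicate 1. The other 4 lay at 4.58 to 4.88, with replicate 4 at the top of that range. Replicate 1 exceeded replicate 4 most for Cxcr2 (5.32 against 4.32), then for S100a8 and Clec4d. The match was not particular to neutrophil markers. Replicate 6 also had the highest mean over 17 monocyte and macrophage markers (6.65), where replicate 4 (6.45) came next. Single markers differed: replicates 1 and 6 were highest for S100a8. For Ngp only replicate 6 stood out (4.58), while replicate 1 (3.80) was level with replicates 3 and 4 (3.78 each) and inside the NaCl range (3.60 to 4.06). Replicate 4 exceeded replicate 1 for S100a9 (5.73 against 5.60), Retnlg (4.97 against 4.73) and Ly6g (3.68 against 3.51). The part of neutrophil RNA in these chemokine values was not tested.

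**Figure D2:**
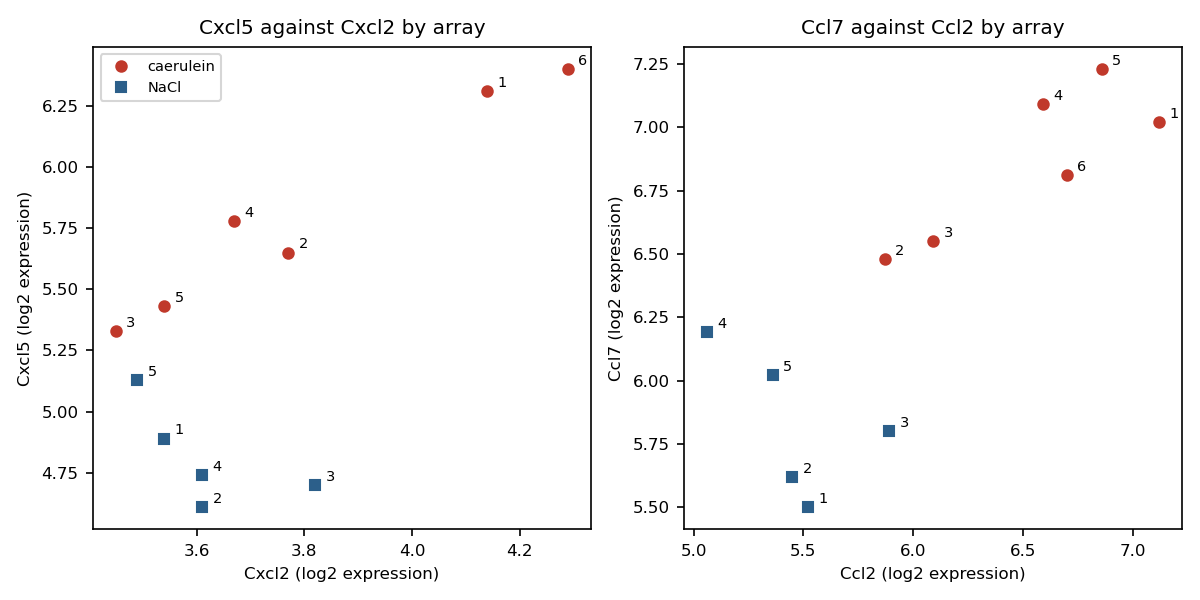
Cxcl5 against Cxcl2 (left) and Ccl7 against Ccl2 (right), both axes in log2 expression, 1 point per array with its replicate number; circles are caerulein (6 arrays) and squares NaCl (5 arrays). Caerulein replicates 1 and 6 are highest for both Cxcl2 and Cxcl5, and caerulein replicates 2 and 3 are the lowest caerulein arrays for both Ccl2 and Ccl7.

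Ccl2 and Ccl7 are CC chemokines that act on Ccr2 and bring monocytes from the blood into tissue. They are next to each other on chromosome 11, with no protein-coding gene between them. Ccl2 was 7.12, 5.87, 6.09, 6.59, 6.86 and 6.70 in caerulein, against 5.52, 5.45, 5.89, 5.06 and 5.36 in NaCl. All but 1 caerulein array lay above all NaCl arrays, the exception being replicate 2, which NaCl replicate 3 slightly exceeded. The difference was 1.08 (SE 0.21, limma adjusted p = 0.00131), or 2.12-fold, and 0.33 under reference-gene scaling, which did not pass (limma adjusted p = 0.146). Ccl7 was 7.02, 6.48, 6.55, 7.09, 7.23 and 6.81 in caerulein, against 5.50, 5.62, 5.80, 6.19 and 6.02 in NaCl. Its groups did not overlap, and the difference was 1.04 (SE 0.16, limma adjusted p = 0.000193), or 2.05-fold, and 0.28 under reference-gene scaling, which did not pass (limma adjusted p = 0.11).

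The ratio of Ccl2 to Ccl7 differed by 0.05 between groups. Over the caerulein arrays r was 0.84 between the 2 genes (exact permutation p = 0.0611, adjusted p = 0.55). Spearman's rho was 0.71 (exact permutation p = 0.136, adjusted p = 0.656). Without the 2 arrays farthest from the median of Ccl2, replicates 2 and 3, r was 0.13. Leaving these out narrows the range of Ccl2 to 4 arrays, so this value cannot show what the relation rests on. Caerulein replicates 2 and 3 were lowest for both chemokines. These arrays also had the lowest caerulein means over 17 monocyte and macrophage markers, 5.99 in each, beside 6.27 to 6.65 in the other 4 caerulein arrays and 5.54 to 5.65 in NaCl. The part of these cells in the chemokine values was not tested.

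Ccl3 and Ccl4 are CC chemokines released by activated macrophages and neutrophils. They too are neighbours on chromosome 11, and their RefSeq entries overlap. Ccl3 was 6.97, 5.32, 4.90, 5.58, 5.64 and 5.58 in caerulein, against 4.66, 4.93, 4.70, 4.63 and 4.70 in NaCl. All but replicate 3 of the caerulein arrays lay above all NaCl arrays, and replicate 1 stood well above the rest. The difference was 0.94 (SE 0.27, limma adjusted p = 0.0147), or 1.92-fold, and without caerulein replicate 1 it was 0.68 and still passed (limma adjusted p = 0.00177). Under reference-gene scaling it was 0.18 and did not pass (limma adjusted p = 0.527). Ccl4 was 5.18, 5.15, 5.15, 5.20, 5.21 and 5.09 in caerulein, against 5.15, 5.29, 5.33, 5.20 and 5.10 in NaCl. The groups overlapped, and the difference of -0.05 had a 95% interval of -0.18 to 0.08 (limma adjusted p = 0.529). The ratio of Ccl3 to Ccl4 ranged from -0.25 to 1.80 in caerulein and from -0.62 to -0.36 in NaCl, a difference of 0.99 that a shift of the arrays does not move. Both probe sets are dim, and whether their signal exceeded background is unknown. This ratio may therefore show little beyond the change of Ccl3.

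Cxcl10 is an interferon-inducible chemokine that acts on Cxcr3 of activated T cells and natural killer cells. The 250 bases before its start (GRCm38.p6, chr5:92348890-92349139, minus strand) are shown because they hold a match to each of 3 motifs searched on both strands, marked in capitals in this order: the interferon-stimulated response element, kB, kB, and the AP-1 site.
Cxcl10: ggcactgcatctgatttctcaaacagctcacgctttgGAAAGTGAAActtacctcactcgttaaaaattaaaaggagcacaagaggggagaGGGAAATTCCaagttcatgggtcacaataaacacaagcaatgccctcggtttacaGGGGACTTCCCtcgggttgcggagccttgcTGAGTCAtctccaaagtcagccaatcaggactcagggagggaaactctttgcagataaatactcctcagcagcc
The response element was searched as 2 copies of GAAA with any 2 bases between them, which occurs in 2.98% of the promoter windows, and the AP-1 site as TGANTCA, which occurs in 6.73%. The second run of kB capitals, GGGGACTTCCC, is 2 overlapping matches. Of the other promoters, that of Ccl20 held 1 kB match, GGAAAACCCC, and that of Ccl3 held none of the 3 motifs in these 250 bases; Cxcl1 and Cxcl2 held no match to the response element or the AP-1 site.

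Cxcl10 was 6.08, 5.16, 5.80, 6.03, 6.96 and 6.48 in caerulein, against 5.23, 4.91, 4.93, 5.27 and 5.42 in NaCl. The arrays of caerulein varied widely, with replicate 5 highest and replicate 2 inside the NaCl range. The difference was 0.93 (SE 0.25, limma adjusted p = 0.00949), or 1.91-fold, and 0.17 under reference-gene scaling, where it did not pass (limma adjusted p = 0.457). The 2 other Cxcr3 ligands were not higher as deposited: Cxcl9 was called lower (-0.30, or -0.19 relative to the median of all probe sets, limma adjusted p = 0.00788) and Cxcl11 had a difference of -0.22 (limma adjusted p = 0.0605). Both lay below the median of every array, and whether their signal exceeded background is unknown. Of the 26 chemokines outside the set 10 were lower as deposited and 3 after repeated quantile normalisation. Such small lower calls depend on the scaling, so a fall of Cxcl9 cannot be read from this one.

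Cxcl16 is made as a membrane protein and is shed by the proteases Adam10 and Adam17, and its receptor is Cxcr6. Cxcl16 was 7.15, 6.85, 6.97, 6.53, 6.61 and 6.38 in caerulein, against 5.45, 5.63, 5.40, 5.55 and 5.43 in NaCl. The groups were far apart, the lowest caerulein array at 6.38 and the highest NaCl array at 5.63. The difference was 1.25 (SE 0.13, limma adjusted p = 4.72e-06), or 2.39-fold. It was the only one of the 10 to stay higher and past the threshold under every alternative run that could move it (differences of 0.50 to 1.34, highest limma adjusted p = 0.00825). Its 2 sheddases were higher as well: Adam10 averaged 8.67 ± 0.13 in caerulein and 7.51 ± 0.15 in NaCl (SD, n = 6 and 5), a 2.24-fold difference (limma adjusted p = 2.69e-07), and Adam17 was 1.73-fold higher (limma adjusted p = 5.78e-05), a call that was lost under reference-gene scaling (0.03). Cxcr6 had a difference of -0.15 (limma adjusted p = 0.192). The order of the caerulein arrays for Cxcl16, with replicates 1, 3 and 2 above 5, 4 and 6, differed from that of the other 5 higher chemokines, for each of which replicates 2 and 3 were not among the 2 highest.

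Ccl20, the ligand of Ccr6, is made by epithelia that NF-kB activates. It was 4.87, 5.04, 4.96, 4.75, 4.84 and 4.97 in caerulein, against 5.00, 5.32, 5.19, 5.00 and 4.98 in NaCl. All but replicate 2 of the caerulein arrays lay below all NaCl arrays, by small margins. The difference of -0.19 (95% interval -0.37 to -0.02) did not pass after adjustment (limma adjusted p = 0.0697).

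**Figure D3:**
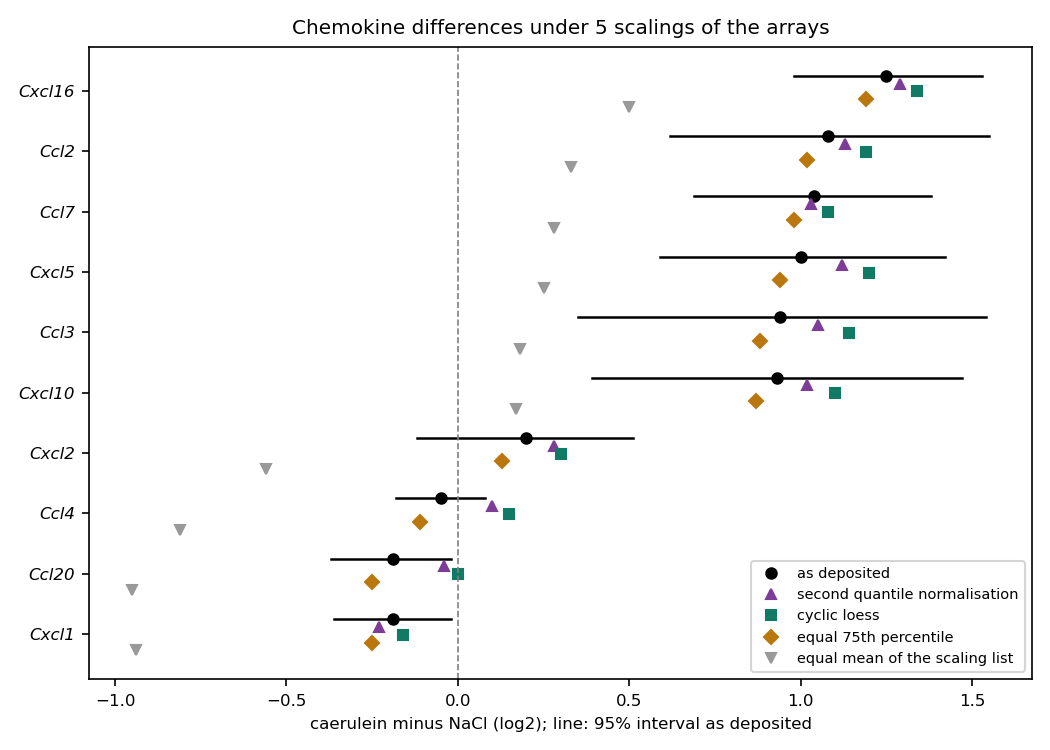
Difference of each chemokine (caerulein minus NaCl, log2) as deposited, with its 95% interval, and under 4 other scalings of the arrays, of which the scaling list is the reference-gene scaling of the text. As deposited 6 lie past the threshold on the higher side. Under reference-gene scaling Cxcl16 alone is called higher, and Cxcl1, Cxcl2, Ccl4 and Ccl20 are called lower.

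The groups also differed over the array as a whole. The median difference of all probe sets was -0.11 as deposited, -0.17 with equal 75th percentiles, -0.05 after repeated quantile normalisation, -0.01 after cyclic loess and -0.86 under reference-gene scaling, which rested on 12 measured genes. Of those 12 genes 7 were themselves higher in caerulein, among them Actb by 2.93 and Ywhaz by 1.88. Of the called probe sets 62.9% were lower as deposited, 72.1%, 56.3% and 46.4% under the next 3 scalings and 95% under the last. Relative to the median of all probe sets, which a shift of arrays does not move, Cxcl16 stood at 1.36, Ccl2 at 1.19, Ccl7 at 1.14, Cxcl5 at 1.11, Ccl3 at 1.05 and Cxcl10 at 1.04. On the same footing Cxcl2 stood at 0.30, Ccl4 at 0.06 and Cxcl1 and Ccl20 at -0.08. All 6 higher chemokines kept a positive difference under every scaling run.

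Among 26 other measured chemokines 5 were higher (19.2%) and 10 lower (38.5%), with a median difference of -0.10, beside 16.4%, 27.8% and -0.11 over all probe sets. The number lower was 3 after repeated quantile normalisation, where 20.1% of all probe sets were lower, and 21 under reference-gene scaling, where 86.9% were. Both leading genes were CC chemokines that act on Ccr1 in the mouse. Ccl9 ranged from 7.38 to 8.50 in caerulein, with a median of 7.90, and from 5.17 to 5.39 in NaCl, a 6.13-fold difference (limma adjusted p = 1.82e-07), and Ccl6 ranged from 7.33 to 8.65 in caerulein and from 5.65 to 6.36 in NaCl, a 3.73-fold difference (limma adjusted p = 4.66e-05). Both differences were larger than that of any of the 10. Neither gene's groups overlapped, as for 12.7% of all probe sets with every caerulein array on the higher side.

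Of 17 chemokine receptor genes 2 were higher (11.8%), 3 lower (17.6%) and 12 did not pass, shares below those of all probe sets (16.4% and 27.8%). Under reference-gene scaling 14 were lower, as were 86.9% of all probe sets. The 2 were Ccr2, the receptor of Ccl2 and Ccl7, and Ccr1, a receptor of Ccl3, Ccl6, Ccl7 and Ccl9. Ccr2 was 6.40, 5.71, 5.63, 7.04, 6.38 and 6.86 in caerulein, against 4.69, 5.11, 4.66, 5.08 and 4.76 in NaCl, a 2.78-fold difference (limma adjusted p = 0.000284). Ccr1 averaged 4.69 ± 0.43 in caerulein and 3.84 ± 0.09 in NaCl (SD, n = 6 and 5), a 1.81-fold difference (limma adjusted p = 0.00151) that did not pass under reference-gene scaling (0.10). Neither receptor had overlapping groups, as for 12.7% of all probe sets with every caerulein array on the higher side. Cxcr1 was separated on the lower side (-0.35, limma adjusted p = 0.00394), as for 15.6% of all probe sets. Cxcr2, the receptor of the neutrophil attractants, was 5.32, 3.89, 3.56, 4.32, 3.24 and 4.57 in caerulein, against 3.46, 3.74, 3.56, 3.60 and 3.53 in NaCl, and did not pass (0.57, limma adjusted p = 0.132). Its highest caerulein arrays were replicates 1 and 6, the same 2 as for Cxcl2 and Cxcl5. Cxcr2 is itself 1 of the 15 neutrophil markers whose mean was given for these arrays, so this is not a separate observation.

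**Figure D4:**
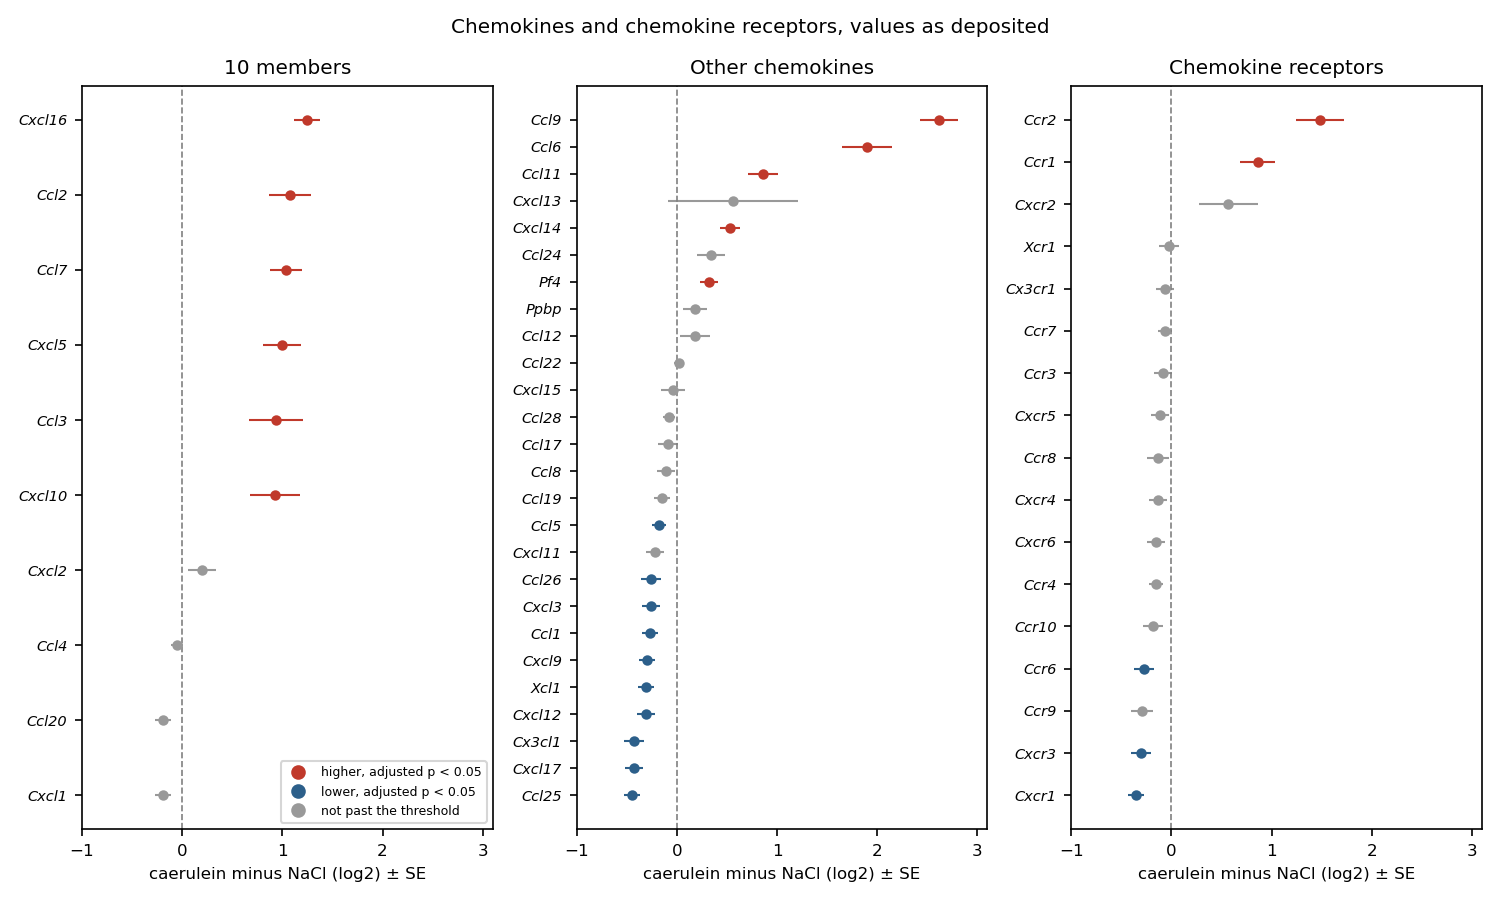
Differences (caerulein minus NaCl, log2, with SE) of the 10 chemokines, 26 other chemokines and 17 chemokine receptors as deposited. Red marks genes higher and blue genes lower in caerulein by the limma test, and grey genes that did not pass; Ccl9, Ccl6, Ccr2 and Ccr1 lead the right-hand panels. Under reference-gene scaling 21 of the 26 and 14 of the 17 were called lower, as were 86.9% of all probe sets.

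Many chemokine transcripts are short-lived, and all 5 measured regulators of unstable mRNA were higher, beside 16.4% of all probe sets. Under reference-gene scaling 3 were higher and 1 lower, where 4.6% of all probe sets were higher and 86.9% lower. Zfp36l1, which promotes decay of AU-rich mRNA, was 2.83-fold higher (limma adjusted p = 2.89e-05), and Elavl1, which binds and stabilises such mRNA, was 2.34-fold higher (limma adjusted p = 3.0e-08). Of 13 cytokines, most of them inducers of chemokines, 2 were higher (15.4%), 2 lower (15.4%) and 9 did not pass. Both shares were below those of all probe sets (16.4% higher and 27.8% lower). Tnf had a difference of -0.14 (limma adjusted p = 0.436) and Il1b one of 0.57 (limma adjusted p = 0.0608). Caerulein replicate 1, the array highest in Ccl3, was also highest in Il1b at 6.28. The 2 higher were Lif and Il33, at 5.46-fold and 1.82-fold, the second of which did not pass under reference-gene scaling (0.11).

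Receptors and adaptors for these inducers were higher in 10 of 11 cases and lower in 1, with a median difference of 0.85. The counts in this paragraph stand beside 16.4% of all probe sets higher and 27.8% lower as deposited. Under reference-gene scaling those shares were 4.6% and 86.9%. The oncostatin M receptor gene Osmr was 7.71-fold higher (limma adjusted p = 4.46e-09) and the tumour necrosis factor receptor gene Tnfrsf1a 3.15-fold higher (limma adjusted p = 3.14e-09). Under reference-gene scaling 5 were higher and 5 lower. Of 11 NF-kB subunits and inhibitors 8 were higher and none lower, and 1 was higher and 6 lower with that scaling. The subunit gene Rela was 9.15 ± 0.15 in caerulein and 6.31 ± 0.25 in NaCl (SD, n = 6 and 5), a 7.15-fold difference (limma adjusted p = 1.23e-09), and Rel was 2.14-fold higher (limma adjusted p = 0.000632, and 0.155 with that scaling). Of 10 interferon-response genes 6 were higher and 1 lower, and 1 was higher and 5 lower with that scaling. Rsad2 and Ifit3, both interferon-induced, were 2.12-fold and 2.06-fold higher, the second of which did not pass with that scaling (0.29). The list shares Cxcl9 and Cxcl11 with the other chemokines.

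The leukocytes that chemokines attract were followed by marker lists, whose counts stand beside 16.4% of all probe sets higher and 27.8% lower as deposited, and 4.6% and 86.9% under reference-gene scaling. Of 17 monocyte and macrophage markers, a list that holds Ccr2, 9 were higher and 1 lower, with a list mean of 5.99 to 6.65 in caerulein and 5.54 to 5.65 in NaCl. Cd14 and Lyz2 led, and of the defining genes Cd68 was higher by 1.59 and Adgre1 by 0.46, while Csf1r had a difference of 0.16 (limma adjusted p = 0.327). Under reference-gene scaling 5 were higher and 11 lower.

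Of 15 neutrophil markers 2 were higher (13.3%; Clec4d, and Mmp8, which was lower under reference-gene scaling) and 3 lower (20%), near the shares of all probe sets, and the list mean was 4.58 to 5.15 in caerulein and 4.66 to 4.75 in NaCl. None of the defining S100a8, S100a9, Ly6g, Ngp and Retnlg passed. Scaling changed the count, to 3 higher and 0 lower after repeated quantile normalisation and to 1 higher and 13 lower under reference-gene scaling. Of 14 T and natural killer cell markers 9 were lower (64.3%, against 27.8% of all probe sets) and none higher, with Cd8a and Cd4 leading, and 2 were lower after repeated quantile normalisation, where 20.1% of all probe sets were. Of 7 dendritic cell markers 1 was lower (Cd209a) and of 6 B cell and lymph node markers 1 (Cd79b), and none of either list after repeated quantile normalisation. Of 8 endothelial and adhesion genes 2 were higher, Pecam1 and Cdh5, and 1 lower, while under reference-gene scaling all 8 were lower, as were 86.9% of all probe sets.

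The tissue label held: the acinar enzyme genes Cpa1, Ctrb1 and Cela1 lay between 14.2 and 14.7 on all arrays, near the highest value on any array (15.0). Of 10 acinar genes 4 were lower (40%) and 1 higher (10%), beside 27.8% and 16.4% of all probe sets. The lower ones were led by the transcription factors Bhlha15 and Rbpjl. Of 5 duct genes 4 were higher (80%), led by Krt19 and Epcam. Under reference-gene scaling 9 of the acinar genes were lower, as were 86.9% of all probe sets. Of the duct genes 3 were then higher and 1 lower, where 4.6% of all probe sets were higher. By Euclidean distance between mean-centred profiles over all 11 arrays, the gene nearest to Cxcl16 was Resf1 (distance 0.32), that nearest to Ccl2 was Riox1 (0.79) and that nearest to Ccl7 was Snx4 (0.50). In each case the runner-up was almost as near (0.34, 0.82 and 0.52), so no single gene stood out as alike.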

How the data were processed

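The authors deposited 1 table of log2 values covering 35556 probe sets on 11 Affymetrix arrays. Per the submitters' processing notes RMA, oligo and limma were used, with versions not given in the sources used here; per the labels' protocols degraded RNA had been left out. RMA usually corrects background, quantile-normalises and summarises each probe set. No detection calls or scan dates were analysed here, so it is unknown which dim probe sets exceed background, and levels are not compared between genes. The number of arrays limits the precision. The series text counts 6 caerulein mice, as many as the arrays, and 4 control mice for 5 arrays, but no label ties a sample to a mouse; p-values therefore reflect only how far these samples scatter, which may be technical.

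Of 35556 probe sets 21789 carried 1 symbol, 1621 several and 12146 none in the platform annotation. Symbols were checked by Entrez identifier against a GRCm38.p6 RefSeq table (21698 matched, 0 renamed). Where a gene had several probe sets, that of highest mean was taken. List genes without a single-symbol probe set were not counted. Groups were compared with lmFit and eBayes of limma 3.58.1 (R 4.3.3), two-sided and without covariates, with Benjamini-Hochberg adjustment over all probe sets and a threshold of 0.05. The fit was tested on simulated data. Correlations and their exact permutation tests used SciPy 1.17.1. Differences are caerulein minus NaCl.

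The members and lists were chosen with earlier results of these data known. The genes named are the 10 members, the 2 genes of each list with the largest change among those called (otherwise that with the smallest p), and the nearest profiles. Others (Cxcl9, Cxcl11, Cxcl13, Cxcr1, Cxcr2, Cxcr6, Tnf, Il1b, the defining markers and 3 acinar enzymes) were chosen after their values were seen. Alternatives were 4 scalings (75th percentile, reference-gene list, repeated quantile, cyclic loess), a filter that kept the brighter 50 percent of probe sets, array weights, a trended and robust prior, a block for replicate number, the mean of a gene's probe sets, and each array left out in turn.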

Additional observations from a re-analysis of the deposited data

Results flagged for a closer look

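The caerulein array of replicate 1 stood apart for Ccl3, at 6.97 beside 4.90 to 5.64 in the other 5 caerulein arrays; the gap to its nearest neighbour was 0.644 of the group's range, above Dixon's 95% critical value for 6 samples. In the NaCl group replicate 2 stood apart for Ccl3, at 4.93 beside 4.63 to 4.70 in the other 4, with a gap of 0.752 of the range also above that value for 5 samples. The second gap is small in absolute terms. These were the only such samples among 80 groups examined (the 10 chemokines and 30 named list genes in 2 groups each), and chance flags about 1 in 20 groups.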

How the results depend on the processing

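The number of chemokines called higher was 6 under all alternatives but 2: it was 5 of the 6 still measured without the dimmer 50 percent of probe sets (Ccl3 was among the 4 removed), and 1 under reference-gene scaling. Averaging a gene's probe sets could not move a chemokine's difference, since each had 1. The number called lower, 0 as deposited, was 4 under reference-gene scaling, 2 with equal 75th percentiles and 1 after repeated quantile normalisation. Leaving out each replicate in turn gave 6 to 6 higher and 0 to 1 lower, the 1 being Cxcl1 without caerulein replicate 1 (-0.21, limma adjusted p = 0.0496). With the replicate number as a block 6 were higher and 1 lower, Ccl20 at -0.20 (limma adjusted p = 0.0487). What a replicate number marks was not stated. The deviations of same-numbered samples from their group means correlated between -0.052 and 0.06 over all probe sets. Such a correlation cannot show whether they shared a condition that moved only some probe sets. The block gave 5452 probe sets higher and 7909 lower, against 5829 and 9884 without it. Over all probe sets, the counts were 1637 higher and 30882 lower under reference-gene scaling, 5467 lower after cyclic loess and 6446 lower when the dimmer probe sets were left out. Leaving out each replicate gave 5471 to 5753 higher and 8645 to 9338 lower. Under reference-gene scaling Cxcl2 was called lower (-0.56, limma adjusted p = 0.00225), and Pecam1 (-0.37), Cdh5 (-0.38) and Mmp8 (-0.34) reversed to lower. There Cxcl5 (0.25), Cxcl10 (0.17), Ccl2 (0.33), Ccl3 (0.18) and Ccl7 (0.28) lost their calls; the cause is the shift itself, which lowered every difference alike. Among 595 values of 30 named list genes under alternatives, 565 kept direction and side of the threshold, 27 were no longer past it and 3 reversed. Leaving out together the arrays of lowest weight (caerulein replicate 1 and NaCl replicate 2, chosen after seeing the data) gave 6 higher and 0 lower. No detection limit was available, so how far signal over background limits the dim Cxcl2, Ccl3, Ccl4 and Ccl20 is unknown.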

Other observations

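Cxcl13, a chemokine that attracts B cells through Cxcr5, varied more between arrays than any of the 10 chemokines. It was 5.80, 7.79, 5.51, 5.32, 5.30 and 9.22 in caerulein replicates 1 to 6, against 6.28, 6.11, 5.38, 6.48 and 5.39 in NaCl replicates 1 to 5, and did not pass (difference 0.56, SE 0.65, limma adjusted p = 0.507). Caerulein replicates 6 and 2 were the high ones. The mean of the 6 B cell and lymph node markers was also highest in these 2 caerulein arrays, at 4.58 and 4.74, beside 4.39 to 4.50 in the other 4 and 4.61 to 4.79 in NaCl.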
